A study of Mus musculus with 39 samples.

Results

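Dendritic cells (DC) taken from mouse lymph nodes 20 h after immunization with nanoparticles that carried bovine serum albumin (BSA) and the adjuvant CpG were compared with DC of non-immunized (NI) mice. The libraries were chosen by their labels alone, 5 of the BSA group and 5 of the NI group, which makes 10 of the 39 libraries of the series. All mice were wild-type C57BL/6 of 8 to 12 weeks, BSA mice having been injected under the skin of the hock with particles that held BSA and CpG, and NI mice having received nothing. Popliteal and inguinal nodes were taken, and DC were purified from them by depleting other cells and then by flow sorting with a gate that is not described. Bulk polyA RNA was sequenced. The series description speaks of mice engrafted with OT-I and OT-II cells, T cells whose receptors recognize ovalbumin (OVA), but the labels of these 10 libraries do not say whether their mice carried such cells. Groups given empty particles or BSA without CpG were not analysed here, so particle, protein, adjuvant and injection cannot be told apart. Nor do the labels say whether the replicates of a group were separate animals, so that p-values measure the spread between these samples, which may be technical. Set beside them are 5 libraries of DC given OVA-CpG particles in the same experiment, with the same NI libraries, and 2 libraries each of DC taken 12 h or 24 h after CpG-only particles in a separate time course with 2 NI libraries of its own.

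DC take up antigen, carry it to T cells and change state when they sense a microbe. CpG is a DNA motif that is rare in vertebrate DNA and is sensed in endosomes by Toll-like receptor 9, which in plasmacytoid DC leads to type I interferon and in other DC to NF-kB signalling and inflammatory cytokines. Type I interferon binds the receptor chains Ifnar1 and Ifnar2 on neighbouring cells. A complex that includes STAT2 and IRF9 then binds interferon-stimulated response elements (ISRE) and switches on antiviral genes, while IRF7, itself such a gene, amplifies the production of interferon. In parallel, DC that mature gain Ccr7, the receptor that guides them to the T cell zone, and the ligands that costimulate T cells.

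Total counts ran from 1203390 to 1745714 in the BSA libraries and from 367209 to 1638434 in the NI libraries. NI replicate 3 was the shallowest, and it stood apart from the other NI libraries in single genes such as Csf1r, Fcgr3, Cd209a and Clec10a, while BSA replicate 1 was highest in most antiviral genes. Y-linked transcripts, summed over 4 genes, were below 20 CPM in all 5 BSA libraries and in NI replicates 4 and 5, against 246 to 301 CPM in NI replicates 1 to 3, so these transcripts moved with the groups. Counts of the main gene lists are therefore also given for the libraries without these transcripts (5 BSA and 2 NI). Genes that define DC were present in every library. Flt3, a growth factor receptor of DC, stood at 364 ± 24.4 CPM in BSA and 427 ± 50.8 CPM in NI (SD, n = 5 each), and Cd74, the invariant chain of MHC class II, at 6913 ± 774 CPM in BSA and 8149.7 ± 1325 CPM in NI. Of other cells, summed B cell markers came to 42.98 to 99.7 CPM in BSA and 36.6 to 78.4 CPM in NI, and neutrophil markers to 15.7 to 42.4 CPM in BSA and 7.95 to 128 CPM in NI. T cell markers summed to 517 to 736 CPM in BSA and 472 to 556 CPM in NI, and NK cell markers to 46.1 to 124 CPM in BSA and 62.3 to 155 CPM in NI. Erythroid markers summed to 3.44 to 262 CPM in BSA and 19.7 to 1368 CPM in NI, with 0 of 4 called by edgeR or DESeq2, 4 at an unadjusted p under 0.05, and 3 called lower in the libraries free of Y-linked transcripts. Cd3e, which defines T cells, was at most 1.59 CPM in BSA and 2.44 CPM in NI. CPM is a library's count of a gene scaled to a total of 1000000. In these bulk samples fewer cells of a type and less RNA per cell cannot be told apart.

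Of 9159 genes tested, 494 (5.39%) passed an adjusted p of 0.05 by edgeR's quasi-likelihood test with Benjamini-Hochberg adjustment, 332 of them (3.62%) higher and 162 (1.77%) lower after BSA particles. Of 34 gene lists, that of antiviral genes of type I interferon had the most rises and that of monocyte and macrophage markers the most falls. Some genes of antigen presentation on MHC class I and of DC migration rose too, by smaller amounts, and some markers of type 2 DC fell. The number of calls depended on single libraries. It was 225 without NI replicate 1, 295 without NI replicate 2, 205 without BSA replicate 1, 250 without BSA replicate 3 and 278 without BSA replicate 5, and it was 126 in the libraries free of Y-linked transcripts. On plain CPM the median gene lay at -0.14 (log2, BSA over NI) and after normalization at -0.01. Fold changes below are on the normalized scale, while overlap between libraries was judged on plain CPM. On that scale every BSA library was higher in 195 of 9159 tested genes (2.13%) and lower in 502 (5.48%).

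**Figure D1:**
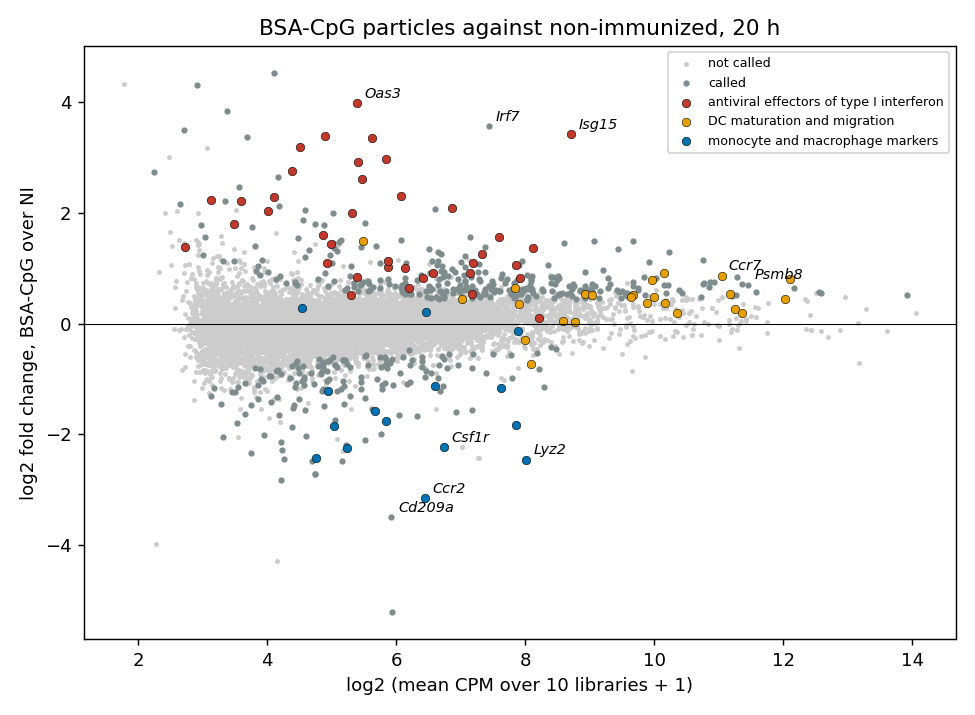
Log2 fold change of BSA over NI (vertical) against log2 of the mean CPM over 10 libraries plus 1 (horizontal) for 9159 tested genes, dark grey where called. Antiviral genes in red lie above 0, monocyte and macrophage markers in blue mostly below it, with 12 of 15 called lower.

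Most antiviral effectors rose. Of 38 listed genes, all of them tested, 30 were called higher and 0 lower, with a median log2 fold change of 1.51 against -0.01 over all genes tested. The count was 17 in the libraries free of Y-linked transcripts (median 1.67), 19 without BSA replicate 1, and 21 with NI replicate 3 and BSA replicate 1 left out together. Isg15, a ubiquitin-like protein that is attached to other proteins during antiviral defence, stood at 1698, 193, 909.7, 388 and 580.2 CPM in BSA replicates 1 to 5, against 64.6, 113, 101, 34.8 and 90.8 CPM in NI replicates 1 to 5. The lowest BSA library lay above the highest NI library (log2 fold change 3.43 ± 0.45, edgeR adjusted p = 0.000567). Irf7, the transcription factor that amplifies interferon production, had 715, 98.4, 351, 141 and 250.4 CPM in BSA replicates 1 to 5, against 19.7, 26.6, 65.4, 18.3 and 35.8 CPM in NI replicates 1 to 5. The groups did not overlap, and the BSA libraries spanned a wider range than the NI libraries (log2 fold change 3.56 ± 0.49, edgeR adjusted p = 0.000573). Isg15 and Irf7 kept their call under each of the 20 alternatives tried.

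Promoter sequence is shown for antiviral genes because the ISRE is the element through which interferon signalling is known to act on them. Windows of 250 bases before to 50 after the annotated start were taken from RefSeq (GRCm38.p6) and searched on both strands for the core of the ISRE, spelled GAAA, then any 2 bases, then GAAA. The sequences are written 5′ to 3′ on the gene's strand, and capitals mark the matches, where TTTC, any 2 bases and TTTC is the same motif on the other strand.
Isg15, chr4:156200855-156200916 (minus strand): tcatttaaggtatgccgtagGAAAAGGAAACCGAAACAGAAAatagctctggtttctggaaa
Ifit1, chr19:34640765-34640833 (plus strand): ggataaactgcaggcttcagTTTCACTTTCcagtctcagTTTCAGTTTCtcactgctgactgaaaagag
Ifit3, chr19:34583353-34583436 (plus strand): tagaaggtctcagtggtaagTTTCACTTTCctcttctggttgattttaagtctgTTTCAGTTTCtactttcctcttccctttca
Oas3, chr5:120777705-120777754 (minus strand): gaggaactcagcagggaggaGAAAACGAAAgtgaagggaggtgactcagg
Rsad2, chr12:26456543-26456592 (minus strand): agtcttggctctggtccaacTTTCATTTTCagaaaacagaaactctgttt
Bst2, chr8:71537567-71537622 (minus strand): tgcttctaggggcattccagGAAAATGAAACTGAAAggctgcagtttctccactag
In Isg15 the capitals join 3 overlapping matches, and Bst2 has 2 that overlap. Of the 38 antiviral genes 27 had a window, and 13 of these (48.1%) held a match. The share was 4.07% over 7148 tested genes with a window, 13.6% over 257 genes called higher and 5.65% over 124 called lower. The other motifs searched were TTCNNNGAA, the core bound by STAT dimers, and the kB motif. Those called higher had TTCNNNGAA in 11.3% of windows and those called lower in 9.68%, against 8.16% of all tested and 22.2% (6 of 27) of the antiviral genes. For the kB motif the shares were 11.7% of those called higher, 11.3% of those called lower and 6.60% of all tested. No match was found in the windows of Irf7, Oasl1 and Psmb8, which says only that these letters are not in these windows.

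Among the genes shown above, Ifit1, which binds viral RNA that lacks the host's cap methylation, had 106, 38.6, 175, 55.7 and 115 CPM in BSA replicates 1 to 5, against 17.5, 9.13, 21.8, 10.99 and 15.9 CPM in NI replicates 1 to 5. Every BSA library was above every NI library (log2 fold change 2.98 ± 0.40, edgeR adjusted p = 0.000567). Its neighbour in the family, Ifit2, stood at 51.4 ± 31.98 CPM in BSA and 5.89 ± 3.12 CPM in NI (log2 fold change 3.40 ± 0.59, edgeR adjusted p = 0.00242), again without overlap. Ifit3 rose in the same direction (log2 fold change 2.77 ± 0.56, edgeR adjusted p = 0.00647), but BSA replicate 2 at 7.87 CPM lay below NI replicate 3 at 13.6 CPM. Of the oligoadenylate synthetases, which activate RNA decay on sensing double-stranded RNA, Oas3 had 176, 14.96, 81.9, 26.3 and 78.7 CPM in BSA replicates 1 to 5, against 7.66, 3.04, 10.9, 2.44 and 7.29 CPM in NI replicates 1 to 5. It had the largest rise of the genes with at least 10 CPM on average and no overlap (log2 fold change 3.98 ± 0.64, edgeR adjusted p = 0.00158). Of the same family, Oasl1 rose by 3.35 ± 0.55 (log2; edgeR adjusted p = 0.0018). Members of this family resemble each other, and how the counting dealt with reads shared between them is not given in the sources used here.

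Rsad2, or viperin, an enzyme that makes a chain-terminating nucleotide, and Cmpk2, the kinase next to it in the genome, rose together. Rsad2 had 235, 62.2, 271, 119 and 239.8 CPM in BSA replicates 1 to 5, against 44.9, 83.7, 16.3, 43.9 and 41.7 CPM in NI replicates 1 to 5, with BSA replicate 2 inside the NI range (log2 fold change 2.09 ± 0.39, edgeR adjusted p = 0.00441). Cmpk2 averaged 18.05 ± 10.2 CPM in BSA and 4.07 ± 1.47 CPM in NI and did not overlap (log2 fold change 2.21 ± 0.49, edgeR adjusted p = 0.0111). Zbp1, a sensor of nucleic acid in the Z form that can trigger cell death, stood at 107 ± 67.1 CPM in BSA and 25.3 ± 6.44 CPM in NI (log2 fold change 2.30 ± 0.38, edgeR adjusted p = 0.0018). Isg20, an RNA exonuclease, had 38.1 ± 26.02 CPM in BSA and 5.31 ± 2.46 CPM in NI (log2 fold change 3.20 ± 0.56, edgeR adjusted p = 0.00247). Mx2, a dynamin-like antiviral GTPase, was low, at 26.5 ± 18.5 CPM in BSA and 5.91 ± 2.35 CPM in NI, and was called (log2 fold change 2.29 ± 0.49, edgeR adjusted p = 0.00933). The 8 members not called all had positive values.

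**Figure D2:**
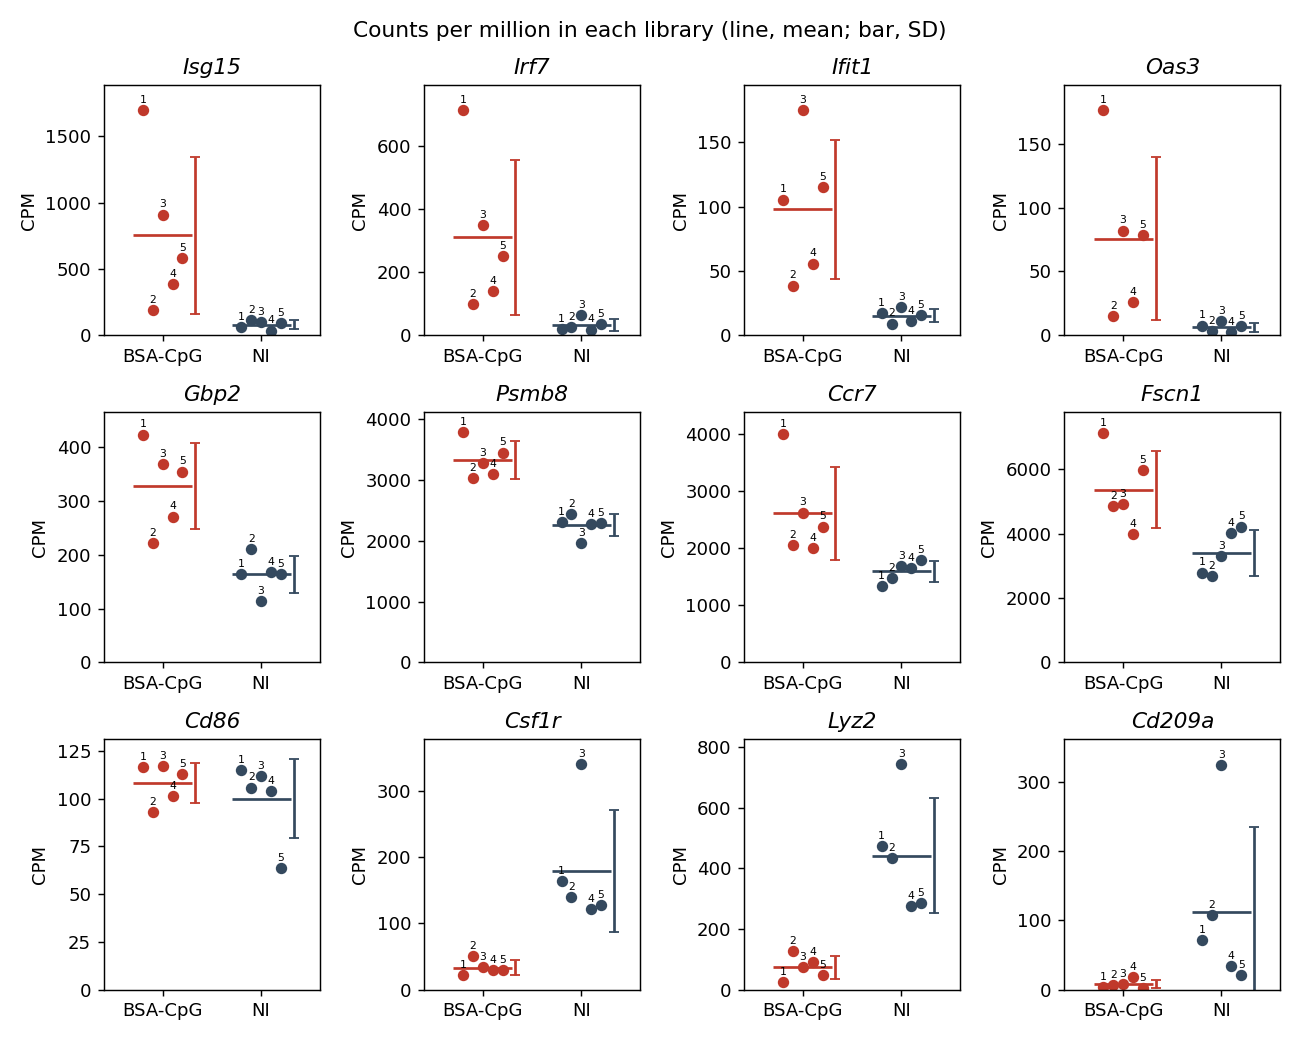
CPM of 12 genes in each library, BSA-CpG on the left and NI on the right of each panel, with replicate numbers, group mean (line) and SD (bar). Isg15, Irf7, Ifit1 and Oas3 lie higher in every BSA library, Cd86 overlaps, and Csf1r, Lyz2 and Cd209a lie lower in every BSA library.

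The size of the antiviral response varied between the BSA libraries. The summed level of the 38 genes was 7439, 2455, 5582, 3326 and 5138 CPM in BSA replicates 1 to 5, against 2087, 2328, 2187, 1849 and 1939.5 CPM in NI replicates 1 to 5. BSA replicates 1, 3 and 5 were far above the NI libraries, BSA replicate 4 less so, and BSA replicate 2 was just above the highest of them. The same order ran through single genes. Of the 30 called members, 26 had their lowest BSA value in BSA replicate 2 and 23 their highest in BSA replicate 1. In 28 of the 30, BSA replicates 1, 3 and 5 were all above every NI library, and in 15 BSA replicate 2 was not above the highest NI library. The libraries of 14 members did not overlap at all, against 195 of 9159 tested genes (2.13%) in which every BSA library was higher.

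Genes of the interferon pathway itself moved in both directions. Of 20 tested, 4 were called higher and 2 lower, with a median of 0.17, and in the libraries free of Y-linked transcripts 2 were higher and 0 lower. The number higher was also 2 without NI replicate 1, 2, 4 or 5 or BSA replicate 1, 3 or 5, each left out alone. Beside Irf7, the rises included Irf9, part of the complex that binds the ISRE, and Socs1, a feedback inhibitor. Irf9 had 298, 154, 173, 147 and 241 CPM in BSA replicates 1 to 5, against 84.3, 96.6, 128, 96.4 and 135 CPM in NI replicates 1 to 5, without overlap (log2 fold change 1.07 ± 0.21, edgeR adjusted p = 0.00592). Socs1 had 112 ± 44.99 CPM in BSA and 68.7 ± 13.9 CPM in NI (log2 fold change 0.90 ± 0.26, edgeR adjusted p = 0.0404). Stat2 did not pass the test (log2 fold change 0.85 ± 0.26, edgeR adjusted p = 0.0632). Ifnb1, the gene of interferon beta, had 0 counts in all 10 libraries, which allows up to 2.49 CPM in a BSA library and 8.17 CPM in an NI library (3 counts of the total, counting error only).

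Both genes that fell encode receptor chains. Ifnar1, a chain of the type I interferon receptor, had 29.9, 31.5, 26.9, 38.2 and 31.8 CPM in BSA replicates 1 to 5, against 82.1, 80.6, 68.1, 61.6 and 57.6 CPM in NI replicates 1 to 5. The BSA values sat close together and below every NI value (log2 fold change -1.001 ± 0.16, edgeR adjusted p = 0.00155). Ifngr1, the ligand-binding chain of the interferon-gamma receptor, had 34.9, 26.8, 22.9, 35.8 and 35.6 CPM in BSA replicates 1 to 5, against 82.1, 73.8, 106, 65.9 and 56.99 CPM in NI replicates 1 to 5, also without overlap (log2 fold change -1.12 ± 0.20, edgeR adjusted p = 0.00279). The partner chain Ifnar2 was not called, at 95.9 ± 5.69 CPM in BSA and 88.6 ± 9.75 CPM in NI (log2 fold change 0.27 ± 0.15, edgeR adjusted p = 0.339). Neither fall was called in the libraries free of Y-linked transcripts, where 2 NI libraries remain. Every one of the other 19 alternatives kept both.

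Interferon-inducible GTPases, which attack the vacuoles of intracellular pathogens, rose in 7 of 14 tested cases and fell in 0 (median 1.20). The count was 2 without NI replicate 1, NI replicate 4, BSA replicate 1 or BSA replicate 3 and 3 without NI replicate 2, each left out alone, and 4 in the libraries free of Y-linked transcripts. Igtp had 126, 35.4, 88.2, 36.6 and 49.9 CPM in BSA replicates 1 to 5, against 19.7, 23.6, 29.96, 19.5 and 19.2 CPM in NI replicates 1 to 5, and the groups did not overlap (log2 fold change 1.82 ± 0.39, edgeR adjusted p = 0.00902). Gbp2, a guanylate-binding protein, had 424, 222, 369, 271 and 355 CPM in BSA replicates 1 to 5, against 164, 212, 114, 168 and 164 CPM in NI replicates 1 to 5. Its lowest BSA value, in replicate 2, was just above its highest NI value (log2 fold change 1.13 ± 0.24, edgeR adjusted p = 0.00812). Ifi47 and Irgm1 were called with overlapping libraries (log2 fold changes 1.503 ± 0.36 and 1.26 ± 0.33), as were Tgtp1 and Tgtp2, near-identical copies whose separate values are uncertain. Of 14 nucleic acid sensing genes only Ifi204, a DNA sensor of the interferon-inducible p200 family, was called (log2 fold change 2.06 ± 0.49, edgeR adjusted p = 0.018). Ifi204 had 34.1 ± 16.3 CPM in BSA and 11.8 ± 10.4 CPM in NI. NI replicate 3, at 29.96 CPM, lay above BSA replicates 2, 4 and 5. Tlr9, the receptor for CpG, was too low to be tested, at 2.20 ± 1.76 CPM in BSA and 1.11 ± 1.15 CPM in NI.

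Some genes that feed MHC class I rose, by smaller amounts and at high levels. Of 22 tested, 7 were called higher and 0 lower (median 0.35), and 21 had positive values. The count was 0 in the libraries free of Y-linked transcripts, with a median of 0.40. Psmb8, a catalytic subunit that interferon puts into the immunoproteasome, had 3783, 3021, 3269.7, 3084 and 3444 CPM in BSA replicates 1 to 5, against 2306, 2439, 1958, 2275 and 2282 CPM in NI replicates 1 to 5. All 5 BSA libraries were above all 5 NI libraries, with little spread in either group (log2 fold change 0.70 ± 0.12, edgeR adjusted p = 0.00283). The other inducible subunits Psmb9 and Psmb10 rose by 0.70 ± 0.14 and 0.57 ± 0.13 (log2, edgeR adjusted p = 0.0062 and 0.0148). Psme1, part of the proteasome activator PA28, stood at 3115 ± 345 CPM in BSA and 2105 ± 251 CPM in NI, without overlap (log2 fold change 0.71 ± 0.13, edgeR adjusted p = 0.00315). H2-D1, a class I heavy chain, had 6879.5 ± 528 CPM in BSA and 5095 ± 513 CPM in NI (log2 fold change 0.58 ± 0.12, edgeR adjusted p = 0.0081). Tapbp and Tapbpl, which edit the peptides that class I molecules hold, rose by 0.85 ± 0.18 and 0.55 ± 0.14 (log2, edgeR adjusted p = 0.00949 and 0.0238). B2m, the light chain of class I, was not called (log2 fold change 0.27 ± 0.17, edgeR adjusted p = 0.412), nor was H2-K1 (log2 fold change 0.45 ± 0.14, edgeR adjusted p = 0.0702). Class I heavy chains resemble each other, so reads may be shared between them.

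Of 31 tested subunits of the constitutive proteasome 5 were called higher and 0 lower (median 0.27, 30 with positive values), namely Psma7, Psmb4, Psmc2, Psmd4 and Psmd14. Psma7 had 593 ± 83.02 CPM in BSA and 426 ± 57.7 CPM in NI, without overlap (log2 fold change 0.62 ± 0.15, edgeR adjusted p = 0.0203). The count was 0 to 3 with each single library left out, 0 in the libraries free of Y-linked transcripts and 8 by DESeq2. Of 15 MHC class II genes 1 was higher and 1 lower, with a median of -0.14, where 3.62% of all tested genes were higher and 1.77% lower. In the libraries free of Y-linked transcripts 0 were called. The gene that fell was H2-DMb1, part of the molecule that loads peptides onto class II, with 138 ± 21.7 CPM in BSA and 305 ± 135 CPM in NI (log2 fold change -0.98 ± 0.23, edgeR adjusted p = 0.0166). NI replicate 3 stood at 545 CPM and the other NI libraries at 261 CPM or less. Ifi30, a lysosomal thiol reductase of antigen processing that interferon-gamma induces, was the one that rose (log2 fold change 0.50 ± 0.14, edgeR adjusted p = 0.0359). Ifi30 kept its call in 8 of 20 alternatives, and H2-DMb1 in 18 of 20.

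**Figure D3:**
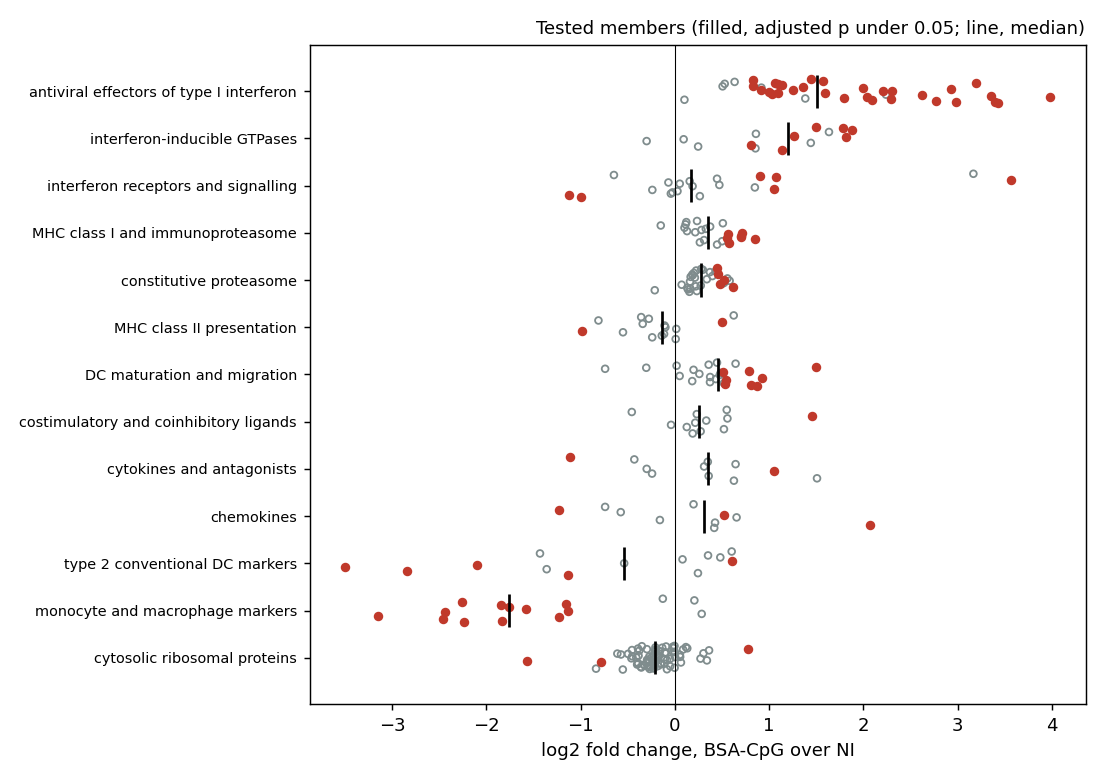
Log2 fold change of BSA over NI (horizontal) for each tested member of 13 gene lists (vertical), filled where called, with the list's median as a line. The antiviral median lies at 1.51, that of MHC class I genes at 0.35, that of DC maturation at 0.46 and that of monocyte and macrophage markers at -1.76.

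DC maturation and migration genes rose in 8 of 24 tested cases and fell in 0, with a median of 0.46 and 22 positive values. The count was 3 without NI replicate 1, 5 without NI replicate 3 and 4 without BSA replicate 1, 3 or 5, each left out alone, and in the libraries free of Y-linked transcripts it was 1 higher and 1 lower. Ccr7, which guides DC to the T cell zone, had 4009.5, 2060.1, 2629, 2006 and 2382 CPM in BSA replicates 1 to 5, against 1338, 1486, 1697, 1658 and 1802 CPM in NI replicates 1 to 5. The groups did not overlap, and BSA replicate 1 was the highest (log2 fold change 0.87 ± 0.19, edgeR adjusted p = 0.00979). Fscn1, which bundles actin in the dendrites of mature DC, had 7122, 4863, 4926, 3989 and 5983 CPM in BSA replicates 1 to 5, against 2794, 2675, 3309, 4013 and 4227 CPM in NI replicates 1 to 5. BSA replicate 4 lay below NI replicates 4 and 5, which are the NI libraries without Y-linked transcripts (log2 fold change 0.81 ± 0.20, edgeR adjusted p = 0.0181). Cd200, a ligand that restrains myeloid cells, showed the largest change of the list, with 62.5 ± 23.9 CPM in BSA and 24.6 ± 9.61 CPM in NI (log2 fold change 1.49 ± 0.27, edgeR adjusted p = 0.00349). Marcksl1, a regulator of actin, rose without overlap (log2 fold change 0.92 ± 0.22, edgeR adjusted p = 0.0166). Serpinb6b, a protease inhibitor, was called with overlapping libraries (log2 fold change 0.78 ± 0.17, edgeR adjusted p = 0.00955), as was Il4i1, an enzyme that degrades aromatic amino acids (log2 fold change 0.54 ± 0.15, edgeR adjusted p = 0.0413). Cd83, a surface marker of mature DC, was close to the threshold (log2 fold change 0.54 ± 0.15, edgeR adjusted p = 0.0431). The summed level of the 24 genes was 35614, 32225, 33205, 29369 and 32967 CPM in BSA replicates 1 to 5, against 24351, 24451, 18992, 31211 and 29495 CPM in NI replicates 1 to 5. NI replicates 4 and 5 reached the range of the BSA libraries, and NI replicates 1 to 3 did not.

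Ligands that instruct T cells were mostly not called. Of 12 costimulatory and coinhibitory ligands tested 1 was higher, Lgals9, which binds Tim-3 (log2 fold change 1.45 ± 0.35, edgeR adjusted p = 0.0194), and 0 were lower. Cd86, a ligand of CD28, had 116, 92.9, 117, 101 and 113 CPM in BSA replicates 1 to 5, against 115, 106, 112, 104 and 63.6 CPM in NI replicates 1 to 5. These ranges overlapped (log2 fold change 0.27 ± 0.20, edgeR adjusted p = 0.46). Cd80, its fellow CD28 ligand, was low in both groups, at 16.8 ± 6.89 CPM in BSA and 17.6 ± 8.15 CPM in NI (log2 fold change 0.19 ± 0.34, edgeR adjusted p = 0.807). Cd40, the receptor for CD40 ligand on T cells, had 919 ± 85.1 CPM in BSA and 708 ± 232 CPM in NI (log2 fold change 0.52 ± 0.17, edgeR adjusted p = 0.0689), and Cd274, which encodes PD-L1, had 107 ± 21.03 CPM in BSA and 95.4 ± 18.7 CPM in NI (log2 fold change 0.33 ± 0.20, edgeR adjusted p = 0.358). Il12b and Il15, cytokines that drive effector T cells and NK cells, were not called either (log2 fold changes 0.63 ± 0.31 and 0.36 ± 0.20).

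Secreted factors gave calls in both directions, where 3.62% of all tested genes were called higher and 1.77% lower. Of 11 cytokines and antagonists tested, Il18bp, the soluble inhibitor of interleukin-18, rose and Tgfb1 fell. Il18bp had 63.2, 44.1, 41.2, 44.6 and 56.7 CPM in BSA replicates 1 to 5, against 18.6, 30.4, 27.2, 30.5 and 25.8 CPM in NI replicates 1 to 5, without overlap (log2 fold change 1.05 ± 0.21, edgeR adjusted p = 0.00646). Tgfb1 had 34.1 ± 8.16 CPM in BSA and 87.5 ± 47.1 CPM in NI, every BSA library being lower (log2 fold change -1.11 ± 0.31, edgeR adjusted p = 0.0389). Tgfb1 kept its call in 10 of 20 alternatives, with adjusted p-values of up to 0.309 (edgeR or DESeq2). Of 10 chemokines, 2 rose and 1 fell, but most alternatives ended the call of the 2 that rose. Cxcl10 kept its call in 9 of 20, with adjusted p-values of up to 0.150, Ccl5 in 7 of 20, with adjusted p-values of up to 0.347, and Ccl9, which fell, in 12 of 20, with adjusted p-values of up to 0.232 (edgeR or DESeq2). Cxcl10, which attracts activated T cells through Cxcr3, had 285, 52.7, 214, 85.96 and 82.5 CPM in BSA replicates 1 to 5, against 21.9, 18.3, 153, 17.1 and 34.5 CPM in NI replicates 1 to 5. Of the NI libraries replicate 3 alone reached the BSA range (log2 fold change 2.07 ± 0.60, edgeR adjusted p = 0.0445). Ccl5, another attractant of T cells, rose at a high level, with 17472 ± 2229 CPM in BSA and 13445 ± 1614 CPM in NI (log2 fold change 0.52 ± 0.15, edgeR adjusted p = 0.0445), and Ccl9 fell without overlap (log2 fold change -1.23 ± 0.31, edgeR adjusted p = 0.0241). Ccl22 and Ccl17, chemokines of migratory DC, were not called, NI replicate 4 being the highest of all 10 libraries in both, at 4766 and 960.1 CPM. Ccl22 had a log2 fold change of 0.20 over all libraries and changed sign in the libraries without Y-linked transcripts.

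Some rises lay outside the interferon lists. Mdk, the heparin-binding growth factor midkine, had 59.8, 35.4, 58.4, 39.00 and 51.4 CPM in BSA replicates 1 to 5, against 12.04, 9.89, 19.1, 13.4 and 16.6 CPM in NI replicates 1 to 5. The groups did not overlap, and no other tested gene had a smaller adjusted p (log2 fold change 1.99 ± 0.24, edgeR adjusted p = 0.000267). Dgkk, a diacylglycerol kinase, stood at 34.1, 11.02, 14.3, 19.1 and 29.5 CPM in BSA replicates 1 to 5, against 0, 0.761, 2.72, 4.27 and 2.65 CPM in NI replicates 1 to 5 (log2 fold change 3.37 ± 0.57, edgeR adjusted p = 0.00195). S1pr3, a receptor for sphingosine 1-phosphate, had 13.4 ± 3.31 CPM in BSA and 4.88 ± 6.49 CPM in NI, and NI replicate 3 at 16.3 CPM lay inside the BSA range (log2 fold change 2.22 ± 0.48, edgeR adjusted p = 0.00949). Atp1b1, the beta subunit of the sodium pump, had 60.7, 64.6, 58.4, 62.9 and 56.7 CPM in BSA replicates 1 to 5, against 32.8, 27.4, 13.6, 30.5 and 18.6 CPM in NI replicates 1 to 5, the BSA values lying close together and above all NI values (log2 fold change 1.39 ± 0.26, edgeR adjusted p = 0.00448). Mdk, Dgkk, S1pr3 and Atp1b1 kept their calls under each of the 20 alternatives. Cd8a, carried by resident type 1 DC and by T cells, had 365, 189, 209.7, 230.0 and 151 CPM in BSA replicates 1 to 5, against 102, 66.2, 133, 86.1 and 112 CPM in NI replicates 1 to 5, without overlap (log2 fold change 1.38 ± 0.33, edgeR adjusted p = 0.0171). It was the only one of 9 tested T cell markers and of 12 tested type 1 DC markers that was called. Xcr1 and Clec9a, which define type 1 DC, had log2 fold changes of -0.29 ± 0.29 and -0.25 ± 0.32.

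Most tested markers of monocytes and macrophages fell. Of 24 listed genes 15 could be tested, and 12 of these were lower and 0 higher, with a median log2 fold change of -1.76 against -0.01 over all genes. Csf1r, the receptor for the growth factor of macrophages, had 22.4, 51.2, 34.4, 29.4 and 29.5 CPM in BSA replicates 1 to 5, against 164, 139, 340.4, 121 and 128 CPM in NI replicates 1 to 5. Every BSA library was below every NI library, and NI replicate 3 was the highest (log2 fold change -2.23 ± 0.33, edgeR adjusted p = 0.000879). Lyz2, the lysozyme of myeloid cells, had 25.8, 127, 74.5, 91.5 and 49.2 CPM in BSA replicates 1 to 5, against 474, 434, 743, 275 and 286 CPM in NI replicates 1 to 5, again without overlap (log2 fold change -2.46 ± 0.35, edgeR adjusted p = 0.000573), though reads may be shared with its copy Lyz1. Ccr2, the receptor that brings monocytes out of the bone marrow, had 4.15, 33.1, 13.2, 19.1 and 7.57 CPM in BSA replicates 1 to 5, against 186, 155, 297, 66.5 and 76.9 CPM in NI replicates 1 to 5, the largest fall of the list (log2 fold change -3.15 ± 0.44, edgeR adjusted p = 0.000573). Cx3cr1, the fractalkine receptor, averaged 6.80 ± 3.18 CPM in BSA and 45.3 ± 22.5 CPM in NI (log2 fold change -2.44 ± 0.38, edgeR adjusted p = 0.00141). C1qb, a subunit of the first complement component that macrophages secrete, had 22.4 ± 5.33 CPM in BSA and 90.00 ± 56.2 CPM in NI (log2 fold change -1.76 ± 0.33, edgeR adjusted p = 0.004), and C1qa and C1qc were lower too. Apoe and the Fc receptor Fcgr3 were called with overlapping libraries (log2 fold changes -1.16 ± 0.32 and -2.26 ± 0.55). Apoe kept its call in 9 of 20 alternatives and Fcgr3 in 15 of 20, with log2 fold changes as small as -0.026 and -0.48. Their adjusted p-values reached 0.960 for Apoe and 0.568 for Fcgr3 (edgeR or DESeq2). Csf1r, Lyz2, Ccr2, Cx3cr1 and C1qb kept their calls under all 20 alternatives.

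Summed over the 24 genes, these markers stood at 590.0, 1021, 882, 940.0 and 638 CPM in BSA replicates 1 to 5, against 2889, 2149, 3712, 1431 and 1572 CPM in NI replicates 1 to 5. All BSA libraries were lower, and the NI libraries with Y-linked transcripts were higher than the 2 without. With only the libraries free of those transcripts 6 genes were called lower and the median was -0.90. Leaving out NI replicate 3 and BSA replicate 1 together left 9 called and a median of -1.40. The part of the Y-linked difference in the fall was not tested beyond these values. Every BSA library was lower in 10 of the 15 tested markers, against 502 of 9159 tested genes on plain CPM (5.48%). Itgax, the integrin CD11c by which DC are often sorted, fell as well, with 91.4, 138, 106, 112 and 99.9 CPM in BSA replicates 1 to 5, against 218, 212, 272, 224 and 199 CPM in NI replicates 1 to 5 (log2 fold change -0.90 ± 0.15, edgeR adjusted p = 0.00235). Zbtb46, a transcription factor of conventional DC, was not called, at 33.5 ± 4.41 CPM in BSA and 30.9 ± 6.43 CPM in NI (log2 fold change 0.27 ± 0.18, edgeR adjusted p = 0.419), nor was Flt3 (log2 fold change -0.09 ± 0.12, edgeR adjusted p = 0.714).

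**Figure D4:**
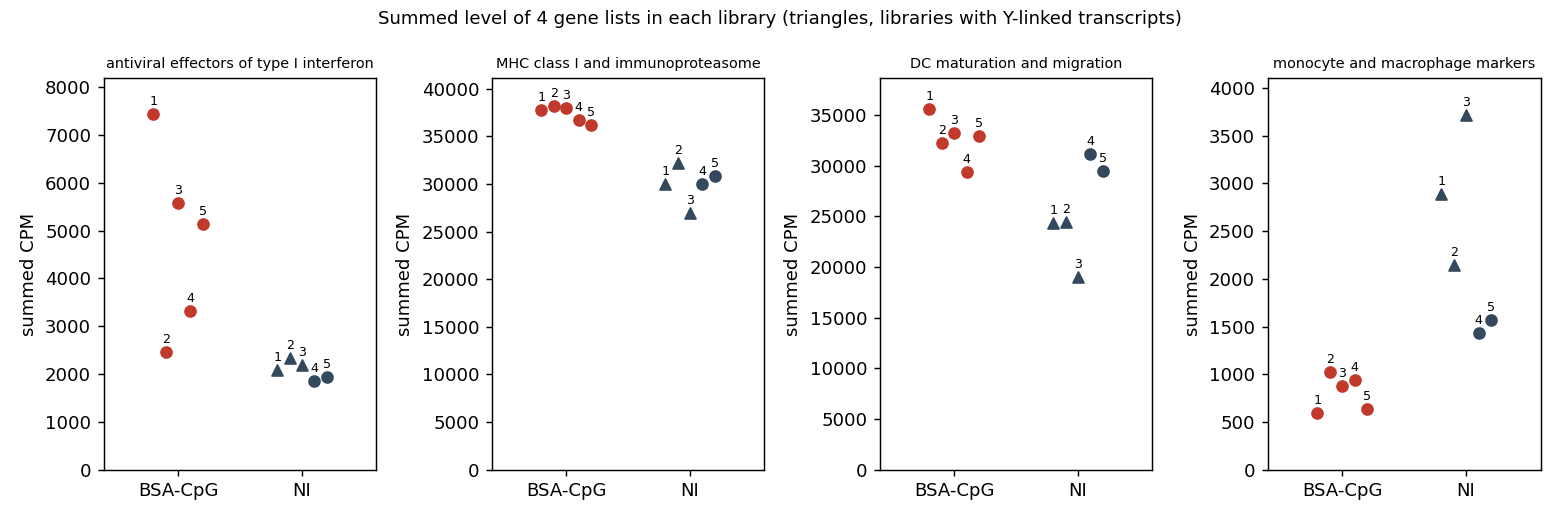
Summed CPM of 4 gene lists in each library, BSA-CpG left and NI right, with replicate numbers and with triangles for libraries that hold Y-linked transcripts. Antiviral sums run from 2455 to 7439 CPM in BSA and from 1849 to 2328 CPM in NI, and monocyte and macrophage sums from 590 to 1021 CPM in BSA and from 1431 to 3712 CPM in NI.

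Type 2 DC markers went both ways, with 4 of 13 tested lower, 1 higher and a median of -0.54. Of the 13, 6 had positive and 7 negative values. The marker that rose was Esam (log2 fold change 0.61 ± 0.17, edgeR adjusted p = 0.0372). Summed over the list, the markers ran from 4551 to 5393 CPM in BSA and from 4236 to 5636 CPM in NI. In the libraries free of Y-linked transcripts 2 were lower and 0 higher. With a term for those transcripts 1 was lower and 0 higher. Sirpa, the receptor for the CD47 signal, had 60.7, 64.6, 56.1, 62.9 and 62.03 CPM in BSA replicates 1 to 5, against 141, 157, 133, 151 and 154 CPM in NI replicates 1 to 5. The NI values, like the BSA values, lay within a narrow range and NI replicate 3 did not stand out (log2 fold change -1.13 ± 0.17, edgeR adjusted p = 0.00124). The lectins Cd209a, Clec10a and Mgl2 were lower by more but varied more. Cd209a had 4.15, 7.08, 8.02, 18.3 and 2.27 CPM in BSA replicates 1 to 5, against 71.2, 108, 324, 33.6 and 21.2 CPM in NI replicates 1 to 5, NI replicate 3 being by far the highest (log2 fold change -3.50 ± 0.69, edgeR adjusted p = 0.00565). Clec10a had 3.14 ± 1.21 CPM in BSA and 32.1 ± 35.96 CPM in NI (log2 fold change -2.84 ± 0.58, edgeR adjusted p = 0.00646), and Mgl2 had 14.6 ± 7.80 CPM in BSA and 74.9 ± 57.99 CPM in NI (log2 fold change -2.10 ± 0.42, edgeR adjusted p = 0.00646). In none of these 4 genes did the groups overlap. Every BSA library was lower in 5 of the 13 tested type 2 DC markers, against 5.48% of all tested genes on plain CPM. Sirpa kept its call in all 20 alternatives, and each of the 3 lectins in 18 of 20, with adjusted p-values of up to 0.144 for Cd209a, 0.129 for Clec10a and 0.131 for Mgl2 (edgeR or DESeq2). Of 8 Langerhans and migratory DC markers 4 were higher, all of them also members of the maturation list, or 2 without NI replicate 1 or 2 or BSA replicate 1 or 5, each left out alone. Of 9 plasmacytoid DC markers 2 were higher, Bst2 and Atp1b1, which other cells also express. Klrb1b, an inhibitory lectin-like receptor, and Ltb4r1, the receptor for leukotriene B4, were among the largest falls without overlap (log2 fold changes -2.44 ± 0.62 and -2.34 ± 0.52).

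Calls in lists of general cell functions were set against the shares over all tested genes, 3.62% higher and 1.77% lower. The lists of cholesterol synthesis, the unfolded protein response, immediate early genes and the cell cycle gave 0 calls by edgeR out of 20, 15, 17 and 21 tested genes, with 3, 2, 7 and 1 genes at an unadjusted p under 0.05 and, by DESeq2, 1 immediate early gene and 0 of the others. Oxidative phosphorylation had 1 higher and 1 lower of 73, and glycolysis 1 higher of 14. Of 81 cytosolic ribosomal protein genes 1 was higher and 2 lower, while 69 had negative values and the median was -0.21. NF-kB subunits and feedback genes had 2 higher of 19, with a median of 0.06.

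The same NI libraries also served DC given OVA-CpG particles, so both responses are set side by side. Against NI, 1429 of 9159 genes (15.6%) were called after OVA particles, 9.56% higher and 6.04% lower, and the antiviral list had 37 of 38 higher with a median of 2.18. Isg15 had a log2 fold change over NI of 4.08 ± 0.46 after OVA and 3.43 ± 0.45 after BSA particles, and Gbp2 one of 2.09 ± 0.24 after OVA and 1.13 ± 0.24 after BSA particles. For Psmb8 it was 0.74 ± 0.12 after OVA and 0.70 ± 0.12 after BSA particles, for Ccr7 1.29 ± 0.19 after OVA and 0.87 ± 0.19 after BSA particles, and for Csf1r -2.73 ± 0.34 after OVA and -2.23 ± 0.33 after BSA particles. Y-linked transcripts stood at 76.0 CPM in OVA replicate 3 and 222 CPM in OVA replicate 4, and below 20 CPM in the other OVA libraries. Their part in the comparisons with OVA was not tested. The direct test of OVA over BSA called 0 of 9159 genes by edgeR and 0 by DESeq2, with 561 at an unadjusted p under 0.05. All 38 antiviral genes had positive values in that test, with a median of 0.74, and their summed level ran from 4774 to 9353 CPM in the OVA libraries against 2455 to 7439 CPM in the BSA libraries. For Isg15 the difference was 0.65 ± 0.39 (edgeR adjusted p = 0.847) and for Cd274 0.79 ± 0.19 (edgeR adjusted p = 0.527). A gene that misses the threshold here is not shown to respond alike to both kinds of particle.

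CpG-only particles in the separate time course, 24 h after immunization, gave a comparison with other controls. Its libraries were of another make-up. Summed T cell markers came to 517 to 736 CPM in the BSA libraries, against 5529 and 6172 CPM after CpG-only particles and 9347 and 9683 CPM in that experiment's NI. B cell markers came to 42.98 to 99.7 CPM in the BSA libraries, against 578 and 2553 CPM after CpG-only particles and 529 and 516 CPM in its NI. The part of these cells in the differences was not tested. Against its NI, 1038 of 9428 genes (11.0%) were called after CpG-only particles at 24 h, 7.96% higher and 3.05% lower, and 1534 (16.3%) at 12 h, 11.6% higher and 4.64% lower. Of 8324 genes tested in both, 308 were higher after BSA particles and 155 of these were also called higher after CpG-only particles, which is 50.3% of the BSA calls and 22.7% of the 683 CpG-only calls, where 8.21% of all genes were called higher. Of the 143 lower after BSA particles 30 were also called lower, or 21.0% of them and 15.9% of the 189 CpG-only calls, against 2.27% of all genes. At 12 h 191 of the 308 rises and 18 of the 143 falls were called the same way, and 18 of the falls were called higher. Across the 8324 genes, which are not independent replicates, Pearson's r between the log2 fold changes of BSA and of CpG-only particles was 0.375 at 24 h and 0.326 at 12 h.

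Of 24 DC maturation genes 14 responded less to BSA particles than to CpG-only particles. The difference between the 2 responses, each taken against its own NI libraries, passed the test in 309 of 10766 genes (2.87%), with 28 (0.260%) more positive and 281 (2.61%) more negative for BSA particles. This number was 65 without NI replicate 2 of the time course and 185 without its NI replicate 1. Among the 24 maturation genes 14 had a smaller response to BSA particles and 0 a larger one, the median difference being -1.52 against -0.08 over all genes. The shift was not particular to this list. The median difference was -1.32 over 15 MHC class II genes, with 2 smaller and 0 larger. Over 6 genes that define DC it was -1.29, with 2 smaller and 0 larger. It was 0.21 over 31 constitutive proteasome genes, with 0 called. Fscn1 had a log2 fold change of 0.81 ± 0.20 after BSA particles and 3.35 ± 0.37 after CpG-only particles, a difference of -2.57 ± 0.45 (edgeR adjusted p = 0.00122). The starting levels differed too, since Fscn1 stood at 3404 ± 700.1 CPM in the NI libraries of the BSA experiment (n = 5) and 65.3 ± 41.5 CPM in those of the time course (n = 2). For Cd86 the difference was -2.35 ± 0.46 (edgeR adjusted p = 0.00308), with 99.9 ± 20.8 CPM in the NI libraries here and 13.5 ± 6.34 CPM in those of the time course. Flt3 likewise differed by -1.98 ± 0.30 (edgeR adjusted p = 0.00022), from NI levels of 427 ± 50.8 CPM here and 22.03 ± 5.76 CPM there. Particle content, hour, experiment and cell make-up all differ between the 2 responses and cannot be told apart.

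Of 38 antiviral genes 7 had a smaller response to BSA particles and 0 a larger one, with a median difference of -0.89. Isg15 had log2 fold changes of 3.43 ± 0.45 after BSA and 3.62 ± 0.27 after CpG-only particles, a difference of -0.21 ± 0.70 (edgeR adjusted p = 0.938), and Oas3 had 3.98 ± 0.64 after BSA and 2.46 ± 0.22 after CpG-only particles. Stat2 differed by -1.67 ± 0.46 (edgeR adjusted p = 0.0415). Of the GTPases 5 of 17 had a smaller response to BSA particles, Gbp2 by -2.12 ± 0.42 (edgeR adjusted p = 0.00308). Among the monocyte and macrophage markers 0 of 20 differed by edgeR and 0 by DESeq2, with 3 at an unadjusted p under 0.05 and a median difference of -0.02. The log2 fold changes were -2.23 ± 0.33 after BSA and -2.54 ± 0.38 after CpG-only particles for Csf1r, and -2.46 ± 0.35 after BSA and -2.40 ± 0.34 after CpG-only particles for Lyz2. The 3 with an unadjusted p under 0.05 were Ccr2, Fcgr3 and Vcam1, an adhesion molecule, each with a lower log2 fold change after BSA particles. Ccr2 had -3.15 ± 0.44 after BSA and -1.54 ± 0.32 after CpG-only particles (difference -1.64 ± 0.67, edgeR adjusted p = 0.211), and Fcgr3 had -2.26 ± 0.55 after BSA and 0.80 ± 0.63 after CpG-only particles (difference -3.05 ± 0.96, edgeR adjusted p = 0.0857). Cx3cr1 lay the other way, with -2.44 ± 0.38 after BSA and -3.87 ± 0.73 after CpG-only particles (difference 1.41 ± 0.94, edgeR adjusted p = 0.508). At 12 h after CpG-only particles 8 of 17 tested markers of this list were called higher and 0 lower (median 0.98), and at 24 h 0 were higher and 8 lower (median -1.54). Ccl9 had log2 fold changes of opposite sign, -1.23 ± 0.31 after BSA and 1.70 ± 0.49 after CpG-only particles (difference -2.96 ± 0.65, edgeR adjusted p = 0.00753). Its CpG-only libraries at 24 h lay far apart, at 378.7 ± 374.9 CPM, against a mean of 131.2 CPM in that experiment's NI. A rise of Ccl9 in each CpG-only library is therefore not shown.

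**Figure D5:**
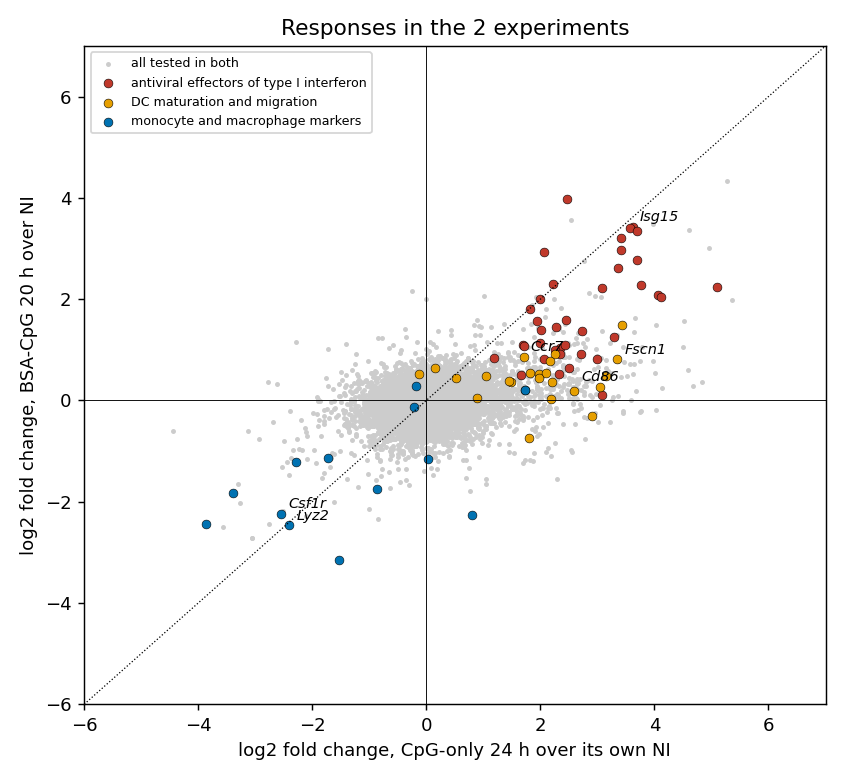
Log2 fold change after BSA-CpG particles at 20 h (vertical) against that after CpG-only particles at 24 h (horizontal), each over the NI libraries of its own experiment, for 8324 genes tested in both, with equality as a dotted line. Antiviral genes in red lie to the upper right, maturation genes in orange mostly to the right of the line, and Csf1r and Lyz2 lie close to the line in the lower left.

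The authors' deposited table of this comparison gave 654 genes with an adjusted p under 0.05, 456 higher and 198 lower. Of these 475 were also called by edgeR here, which is 72.6% of the 654 in the authors' deposited table and 96.2% of the 494, and all 475 had the same sign.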

How the data were processed

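Bulk RNA-seq counts of lymph node DC from 5 BSA, 5 OVA and 5 NI libraries of the 20 h experiment, and from 10 libraries of a time course, were used as deposited. Per the submitters' processing notes, HISAT 0.1.6, HOMER and bcl2fastq were used with mouse genome mm9; strand setting and treatment of shared reads are not given in the sources used here. The authors' deposited table also gives log2 fold changes and adjusted p-values, which were used for 1 comparison of calls. Columns of 2 further libraries (4 columns) match no sample label and were not used. Raw counts were tested with edgeR 4.0.16 (R 4.3.3; quasi-likelihood test, TMM, filterByExpr by group, Benjamini-Hochberg over all genes tested, threshold 0.05) on all 15 libraries of the 20 h experiment, on the 10 of the time course, and on all 25 for the difference between responses, with log2 fold changes given ± SE. Each edgeR SE is the absolute log2 fold change divided by the square root of the test's F statistic. On simulated counts for BSA against NI, with 200 of 8981 genes changed, 72% of 2-fold and 99% of 4-fold changes were recovered, and 5.52% of calls were false. The changed genes left out those of low counts, and counts were drawn independently for each library. These rates therefore do not cover low genes, libraries that stand apart or the Y-linked difference. Alternatives were DESeq2 1.42.0, its size factors, other filters, a replicate block, terms for Y-linked transcripts and for markers of other cells, and each library left out. Depth ran from 367209 to 1745714 counts per library, so low genes of the shallow NI replicate 3 are the least certain.

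The members and gene lists were chosen with earlier results of these data known. Genes were named from those called with at least 10 CPM on average and no overlap between groups (10 largest rises, 10 largest falls), up to 4 called members with the smallest adjusted p in each list, and a fixed set of DC genes; other members of a list are named beside them, chosen after their values were seen. Promoter windows are from RefSeq (GRCm38.p6), used only for sequence and not for counts. Results for 1 gene are not reported here.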

Additional observations from a re-analysis of the deposited data

Results flagged for a closer look

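In 256 sets of 5 values (total counts, list sums and named genes except Esam), single libraries far from the other 4 of their group were looked for. Chance marks about 1 in 20. There were 26, of which 12 were NI replicate 3 and 3 were BSA replicate 1. In NI replicate 3 these were the summed unfolded protein response genes at 2179 CPM and Ifi47 at 62.6 CPM, Ifi204 at 29.96 CPM, H2-DMb1 at 545 CPM, Cxcl10 at 153 CPM, Csf1r at 340.4 CPM, Fcgr3 at 179.7 CPM, Cd209a at 324 CPM, Clec10a at 95.3 CPM, S1pr3 at 16.3 CPM, C1qc at 128 CPM and Klrb1b at 92.6 CPM, all above the other NI libraries. In BSA replicate 1 they were Psmc2 at 231 CPM, Cd83 at 699.7 CPM and C1qb at 31.6 CPM. BSA replicate 3 had the highest total count of its group, 1745714, and an Ifng level of 49.8 CPM, against at most 11.6 CPM in the other BSA libraries. BSA replicate 4 stood apart in summed cell cycle genes at 518 CPM, and BSA replicate 5 in Tlr9 at 5.30 CPM. Among the other NI libraries, replicate 2 was highest in summed type 2 DC markers at 5636 CPM and in Lgals9 at 30.4 CPM, replicate 4 in Cd83 at 529.8 CPM and Ccl17 at 960.1 CPM, and replicate 5 in Mx2 at 9.94 CPM and Ifng at 4.64 CPM and lowest in Cd86 at 63.6 CPM.

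Of 93 genes whose response to BSA particles at 20 h was tested against that to CpG-only particles at 24 h, 14 differed (edgeR, adjusted over all genes), each with a smaller or more negative response to BSA particles. The differences (log2) were -1.67 for Stat2, -2.12 for Gbp2, -2.57 for Fscn1, -1.42 for Serpinb6b, -1.58 for Il4i1 and -1.29 for Cd83. They were -1.48 for Cd40, -2.35 for Cd86, -1.96 for Cd274, -1.90 for Il15, -2.77 for Il18bp, -2.96 for Ccl9, -1.98 for Flt3 and -1.33 for Cd74. The experiments differ in time and cell make-up, which cannot be told apart from the particles.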

How the results depend on the processing

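For BSA against NI, edgeR called 494 genes. The number was 624 by DESeq2, 490 with its size factors and 516 unfiltered. It was 483 among genes averaging 1 CPM or more, 633 from the compared libraries alone and 642 with marker covariates. A term for Y-linked transcripts left 187 genes (132 higher, 55 lower), the libraries without them 126 (72 higher, 54 lower), and leaving out NI replicate 3 and BSA replicate 1 together, an alternative chosen after seeing the data, 196 (126 higher, 70 lower); the cause was not tested, though the last 2 hold fewer samples. With each single library left out the number ran from 205 to 495. For OVA against BSA it was 0 to 7 (7 without OVA replicate 5), and 2 with no filter. For CpG-only particles at 12 h it ran from 714 to 1099, with 1014 by DESeq2, where the lowest was without NI replicate 2 of the time course, 872 without its NI replicate 1 and 828 without CpG-only replicate 2. At 24 h it ran from 446 to 1126, the lowest again without NI replicate 2, and 539 without NI replicate 1. For the difference between responses it ran from 65 to 349. Where 1 library of a group is left, that library is assumed to vary like the other groups. Of 73 called genes named in the text, Esam not being counted, 24 kept their call in every one of the 20 alternatives, and 0 changed sign. Among genes not called, Cd74 reversed to 0.12 in the libraries without Y-linked transcripts, and Ccl22 reversed to -0.091 with the Y-linked term, -0.44 in the libraries without those transcripts and -0.037 with both libraries left out. With single libraries left out Ccl17 ran from -1.001 (without NI replicate 2) to 0.049 (without NI replicate 4), and Cd80 from -0.13 (without BSA replicate 1) to 0.32 (without NI replicate 4).

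No pairing of samples by replicate number was seen, though correlations of 5 libraries per group cannot exclude it. Correlations of same-numbered BSA and NI libraries ran from -0.18 to 0.12, 0 of 5 BSA libraries correlated best with their own number, and the replicate block called 399 genes for BSA against NI, 0 for OVA against BSA, and 1560 and 1063 for CpG-only particles at 12 h and 24 h.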
